A study of Mus musculus with 4 samples.

Results

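The ubiquitin-specific proteases (USPs) were followed in the Long RNA-seq of female germline stem cells (FGSCs) with reduced *Nat10*. Members were taken by name alone: protein-coding genes whose symbol is Usp, a number and at most 1 letter, without *Usp18*. This gave 49 of the 53465 genes with a deposited value. The shNC group carried a control shRNA and the shNAT10 group an shRNA against *Nat10*, which encodes the RNA cytidine acetyltransferase, with 2 libraries per group and 4 in all. Both groups were cultures of a mouse line labelled as FGSCs from ovary, and by the study's methods the shRNAs were delivered by lentivirus and infected cells were selected with puromycin or blasticidin S. The study states a C57BL/6J background for its mice without tying it to the line, and no age was given. It counts the 2 libraries of a group as biological replicates, but whether they came from separate cultures or infections is not given in the sources used here, so p-values measure only the spread between these libraries.

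Ubiquitin is a small protein that is joined to other proteins singly or in chains, and the kind of chain decides whether a target is sent to the proteasome, moved within the cell or switched in activity. USPs are cysteine proteases that cut ubiquitin off again, and they form the largest family of deubiquitinases in mammals. Single members act on histones, DNA repair factors, receptors, mitochondria or the proteasome itself, and in germ cells histone ubiquitination is known for its part in silencing and in the repair of meiotic breaks.

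Values are FPKM, in which fragments are divided by exon length and by a size for each library that did not follow its total of fragments, so that levels can be compared between genes. The libraries shNC-1, shNC-2, shNAT10-1 and shNAT10-2 held 14900416, 13026724, 11055842 and 13768895 fragments recovered from these values. For a gene with 1 kb of exon, a floor of 3 fragments corresponds to values between 0.196 FPKM (shNAT10-2) and 0.255 FPKM (shNC-1), and this floor covers counting error only. Loci where rRNA reads map took 45.7% and 35.6% of the fragments in shNC-1 and shNC-2 and 23.7% and 25.6% in shNAT10-1 and shNAT10-2, and a scaling that leaves these loci out is given beside the counts below.

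The label of the cells was compared with marker genes. Of 13 germ cell and germline stem cell markers, 5 were listed at 0 in all 4 libraries, namely *Dazl*, *Pou5f1*, *Dppa3*, *Tfap2c* and *Stra8*, and the germ cell helicase gene *Ddx4* was above 0 in shNAT10-1 alone, at 0.0529 FPKM. The summed level of these markers was 34.9 and 44.6 FPKM with shNC and 43.2 and 50.9 FPKM with shNAT10, most of it from *Ifitm3*, which is not restricted to germ cells, and from the receptor gene *Kit*. This sum adds opposite directions, since *Kit* was called lower, while *Ifitm3* was higher in both shNAT10 libraries than in either shNC library, was not called by limma and was called in 6 of 15 alternatives. *Stra8* marks entry into meiosis, so that its absence does not bear on the label of a stem cell. The study uses *Sycp3* as a meiotic marker too, so its presence does not speak for that label. Above 0 in every library were *Ifitm3*, *Kit*, *Zbtb16* (123 fragments), *Sycp3* (42 fragments), *Gfra1* (38 fragments) and *Prdm1* (24 fragments). *Dazl*, *Pou5f1* and *Dppa3* were thus at 0 and *Ddx4* near 0, and the genes above 0 are not read as support for the label. The cells are called FGSCs here only after that label.

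Markers of other cell types were present. The 6 pan-leukocyte markers summed to 354 and 402 FPKM with shNC and 297 and 312 FPKM with shNAT10, with *Cd53* the most abundant by the mean of the 4 libraries and *Coro1a* above it in both shNAT10 libraries, none of them at 0 in all libraries, and 3 (*Cd53*, *Itgb2*, *Laptm5*) called lower. The 10 mast cell markers summed to 298 and 311 FPKM with shNC and 316 and 309 FPKM with shNAT10, most of it from *Cpa3*, with *Fcer1a* and *Tpsb2* at 0, *Ms4a2* called higher and *Gata2* and *Mitf* called lower. For 6 macrophage markers the sums were 48.1 and 52.9 FPKM with shNC and 38.1 and 43.3 FPKM with shNAT10, led by *Adgre1*, with *C1qa* at 0, *Adgre1* called lower and *Lyz2* called higher. The 8 fibroblast or stroma markers summed to 54.3 and 47.4 FPKM with shNC and 65.2 and 55.6 FPKM with shNAT10, led by *Dcn*, with *Lum* at 0 and 3 (*Col3a1*, *Pdgfra*, *Thy1*) called higher. The 7 granulosa cell markers summed to 2.98 and 2.47 FPKM with shNC and 3.49 and 3.87 FPKM with shNAT10, led by *Inhba*, with *Foxl2* and *Fshr* at 0 and none called. The macrophage and mast cell lists thus held calls in both directions, the pan-leukocyte calls were all lower and the stroma calls all higher, and the part of these cells in the values of the USPs was not tested. In bulk RNA, fewer cells of a type and less RNA per cell cannot be told apart.

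*Nat10* itself (chromosome 2, minus strand, 103721256 to 103761270 in GRCm38) was read first as a check of the labels. It stood at 7.79 and 5.42 FPKM in the shNC libraries and at 2.95 and 3.04 FPKM in the shNAT10 libraries. The 2 values after knockdown were lower than either control value (log2 fold change -1.09, standard error (SE) 0.21, adjusted p = 0.123 by limma). The call was lost without shNAT10-1 (-1.07) or without shNAT10-2 (-1.11), when the single remaining shNAT10 library was assumed to vary like the shNC libraries. The study lists 3 target sequences for *Nat10* and the sources used here do not say which of them was used in these libraries. They are shown because a shared run of bases with a USP transcript would bear on the results, with capitals for the longest run that any of the 49 members holds on either strand, and each lies within a single exon on the minus strand of chromosome 2 (GRCm38).
Y24155, at 103731978 to 103731998: tTGCTGTTCACCCAGattatc
Y24156, at 103754169 to 103754189: agAGTGGGACCTTGaacttaa
Y24157, at 103734449 to 103734469: gcagtggagaAGTGGCTTAAT
Of the 21 bases, the longest runs were 14 bases in *Usp54*, 12 in *Usp5* and 11 in *Usp29*, so no member held a whole target. Only the longest run for each target was sought, and whether partial matches act on a member was not tested.

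The members spanned a wide range of levels. Of the 49, 9 had a mean of at least 10 FPKM over the 4 libraries, 27 had 1 to 10 FPKM, 7 had 0.1 to 1 FPKM, 2 were above 0 and under 0.1 FPKM, and 4 (*Usp9y*, *Usp26*, *Usp43* and *Usp51*) were listed at 0 in all libraries. The 49 together summed to 359 and 359 FPKM with shNC and 353 and 340 FPKM with shNAT10. The 4 most abundant members of each library held 48.5% and 49.3% of this sum in shNC and 48.2% and 47.1% in shNAT10. *Usp1* made up 18.7% and 16.4% of the sum in shNC and 21.2% and 21.4% in shNAT10, and *Usp14* made up 12.4% and 16.9% in shNC and 9.49% and 9.47% in shNAT10. The order of *Usp1* and *Usp14* differed only within shNC: *Usp14* held slightly more than *Usp1* in shNC-2, and less than *Usp1* in the other 3 libraries.

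**Figure D1:**
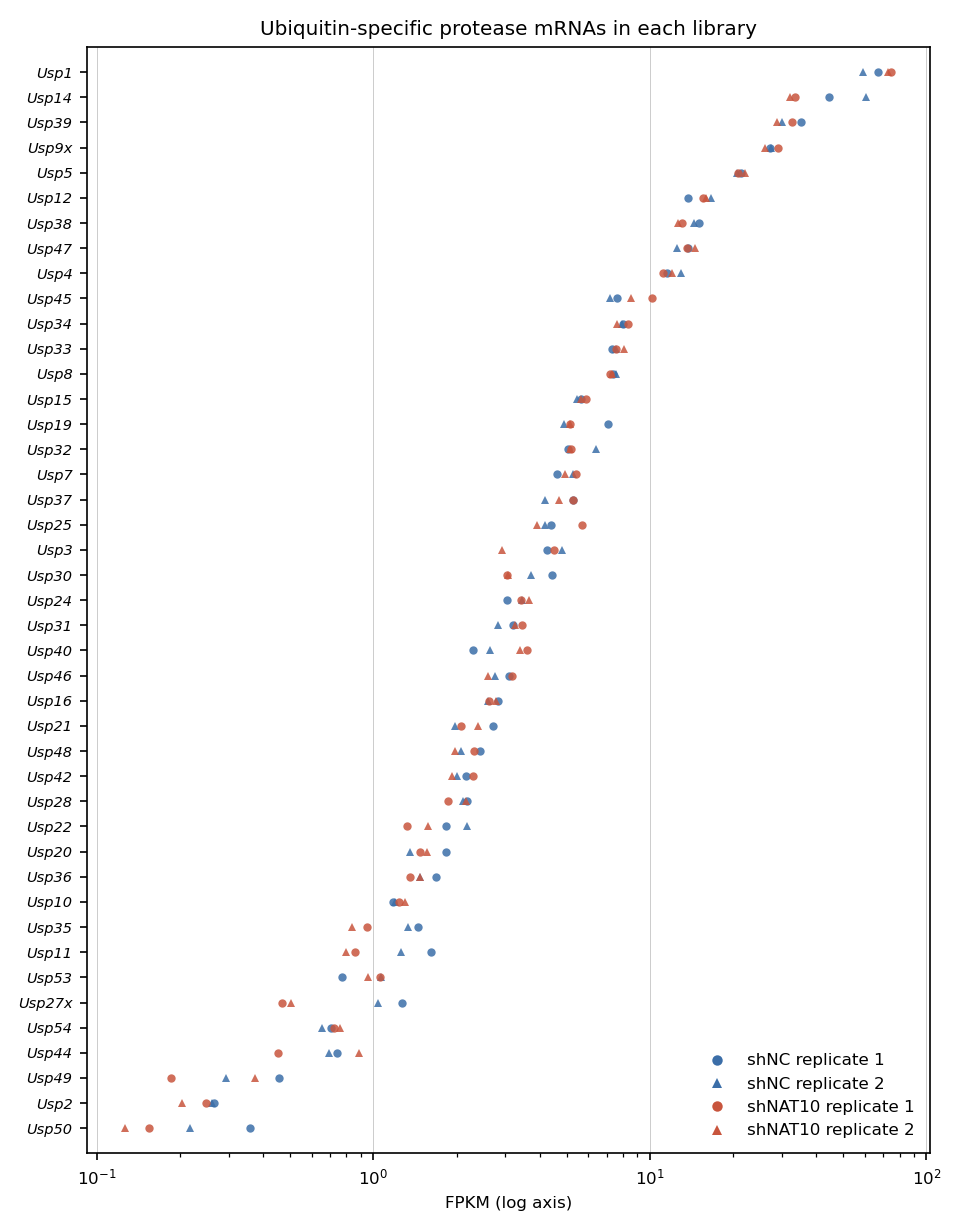
FPKM of the 43 USP genes with a mean of at least 0.1 FPKM, on a log axis, 1 row per gene ordered by mean, with blue for shNC, red for shNAT10, circles for replicate 1 and triangles for replicate 2. For most genes the 4 points lie close together, while those of *Usp14*, *Usp27x*, *Usp11* and *Usp35* show both shNAT10 libraries to the left of both shNC libraries.

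The 43 members with a mean of at least 0.1 FPKM were tested with all 20116 genes that passed this filter, by limma on log2(FPKM + 0.1). Like the study's own threshold, calls needed more than a 1.2-fold difference together with an unadjusted p no higher than 0.05. Called lower in shNAT10 were 5 of the 43 members, *Usp14*, *Usp27x*, *Usp11*, *Usp35* and *Usp30*, which is 11.6% against 7.83% of all genes tested. Called higher was 1 member, *Usp40*, which is 2.33% against 8.41% of all genes. These shares were of the same order as the background, with fewer calls upward, and no more is read from them.

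None (0 of 43) had an adjusted p under 0.05 by limma, where 88 of all genes had, while 6 of the 43 members had an unadjusted p under 0.05, as had 3330 of all 20116 genes. By limma-voom on the recovered fragments, 2 members were lower (*Usp14*, *Usp27x*) and 1 higher (*Usp40*) at an adjusted p under 0.05, against 3.64% of 20065 genes lower and 4.23% higher. Without shNAT10-1, 0 members were called lower and 0 higher, and without shNAT10-2, 0 were called lower and 1 higher, which was *Usp45* and not *Usp40*. In these fits a lone shNAT10 library was given the spread of the shNC libraries, and the log2 fold changes moved little, to -0.69 and -0.63 for *Usp14* and to -1.06 and -1.15 for *Usp27x*. Without shNC-1, the calls of *Usp11*, *Usp30*, *Usp35* and *Usp40* were lost, 3 members were called lower and 1 higher, and without shNC-2 that of *Usp35* was lost, with 6 called lower and 1 higher. Over all genes, 1691 were called higher and 1576 lower, against 1108 and 899 without shNAT10-1, 1179 and 1007 without shNAT10-2, 1734 and 1659 without shNC-1 and 1731 and 1393 without shNC-2. Scaled to the same number of fragments outside the rRNA-related loci, the split over all genes was 2031 higher and 1236 lower, and that of the members 3 higher and 3 lower.

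As a group the members hardly moved. Their median log2 fold change was -0.037, with quartiles of -0.18 and 0.078, beside a median of 0.0054 for all genes. It was 0.0024 without shNC-1, so that it has no stable sign. When the libraries were scaled to the same fragments outside the rRNA-related loci, it was 0.019 beside 0.058 for all genes. That scaling moves all genes alike, so nothing is read from its sign there. Of the 43, 25 were below 0 and 18 above. Their median absolute difference between the groups was 0.12 on the log2 scale, as a difference of means, beside 0.17 within shNC and 0.10 within shNAT10 as differences of single libraries. Both shNAT10 libraries lay above both shNC libraries for 7 members and below them for 11, beside 23.9% and 24.1% of all genes.

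**Figure D2:**
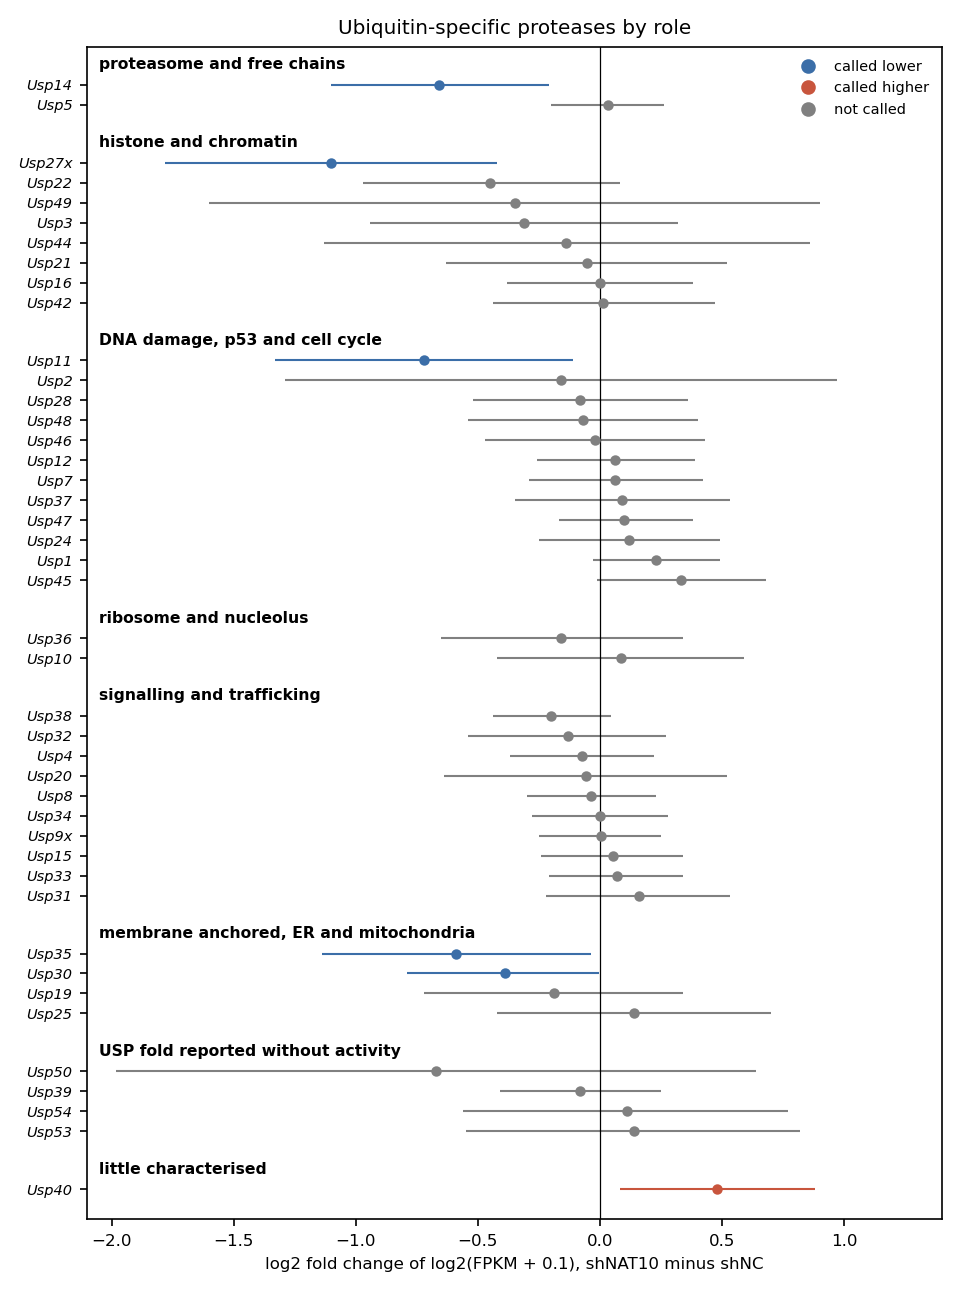
Log2 fold change of log2(FPKM + 0.1), shNAT10 minus shNC, for the 43 tested USP genes grouped by role, with points for the estimate and bars for its 95% interval from limma (2 libraries per group). Blue points were called lower, the red point was called higher and grey points were not called, and most intervals include 0.

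The members at the proteasome and on free chains were *Usp14*, *Usp5* and *Usp13*. *Usp14* encodes the deubiquitinase that binds the proteasome and trims ubiquitin from arriving substrates. It stood at 44.3 FPKM in shNC-1, 60.5 FPKM in shNC-2, 33.5 FPKM in shNAT10-1 and 32.2 FPKM in shNAT10-2. The shNAT10 libraries were nearly equal and lay below both shNC libraries, which differed more from each other. The fall left 63.5% of the shNC level on the scale tested (log2 fold change -0.66, SE 0.17, 95% interval -1.10 to -0.21, adjusted p = 0.190 by limma). An exact permutation test over the 4 libraries gave p = 0.33, the smallest value that 2 against 2 libraries can give. By limma-voom the adjusted p was 0.000127, and over the 15 alternatives it ran from 0.000127 to 0.571. The call held in 13 of the 15 and was lost without shNAT10-1 (-0.69) or without shNAT10-2 (-0.63), and the log2 fold change was -0.43 without shNC-2. With 17967 fragments in all, *Usp14* was among the best counted members, and its longest transcript shares no run of 50 bases with another gene.

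Of the exon bases of *Usp14*, 26.0% are also covered by *Thoc1*, a gene of the mRNA export complex on the opposite strand. Whether strand was used in counting is not given in the sources used here, so fragments of this stretch cannot be told apart. *Thoc1* stood at 8.48 and 9.81 FPKM with shNC and at 10.8 and 9.19 FPKM with shNAT10, with overlapping groups (log2 fold change 0.13, 95% interval -0.24 to 0.50). *Thoc1* thus had lower values than *Usp14* in every library and was not called.

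*Usp5* takes apart free ubiquitin chains and so returns ubiquitin to the pool. It stood at 21.4 and 20.6 FPKM with shNC and at 20.9 and 22.1 FPKM with shNAT10, with overlapping groups and no difference detected (log2 fold change 0.031, 95% interval -0.20 to 0.26). Its relative *Usp13* had 2 fragments, both in shNAT10-1, and was not tested. *Usp5* was below *Usp14* in every library, and whether their changes differed was not tested.

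Of the 9 members that act on histones and chromatin, 8 were tested, with 1 called lower (12.5%, against 7.83% of all genes), none higher, and a median log2 fold change of -0.22. *Usp27x*, an X-linked relative of *Usp22* that works with the same cofactors, stood at 1.27 and 1.04 FPKM with shNC and at 0.466 and 0.503 FPKM with shNAT10. Both shNAT10 libraries were at about the same level and well below both shNC libraries (log2 fold change -1.10, SE 0.26, 95% interval -1.78 to -0.42, adjusted p = 0.169 by limma). With the pseudocount of 0.1 this was the largest fall among the 43 members, on 64 and 53 fragments with shNC and 25 and 33 with shNAT10. With a pseudocount of 1 the order changed, at -0.54 for *Usp27x* and -0.64 for *Usp14*. By limma-voom the adjusted p was 0.0185, and over the 14 alternatives that tested the gene it ran from 0.0185 to 0.510. The call was lost without shNAT10-1 (-1.06) or without shNAT10-2 (-1.15).

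*Usp22*, the catalytic subunit of the deubiquitinase module of the coactivator SAGA, stood at 1.83 and 2.19 FPKM with shNC and at 1.32 and 1.58 FPKM with shNAT10. The groups did not overlap, but the test was not passed (log2 fold change -0.45, 95% interval -0.97 to 0.082, adjusted p = 0.366 by limma). By limma-voom it passed the unadjusted threshold (adjusted p = 0.242, the lowest of its 15 alternatives, which ran up to 0.679). The third gene of this trio, *Usp51*, was listed at 0 in all libraries. Of *Usp22* and *Usp27x*, *Usp22* thus had the higher level in every library, and whether their changes differed was not tested.

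The other members of the module were read beside them. Of *Atxn7*, *Atxn7l1*, *Atxn7l2*, *Atxn7l3* and *Eny2*, which anchor or activate the enzyme, none (0 of 5) was called by limma. Of all genes, 8.41% were called higher and 7.83% lower. None of the 5 had an unadjusted p under 0.05 by limma or an adjusted p under 0.05 by limma-voom. At this adjusted p, 4.23% of all genes were higher and 3.64% lower. *Atxn7* and *Atxn7l1* passed the unadjusted threshold of limma-voom, as *Usp22* did. With 5 genes, no more is read from these counts. The scaffold gene *Atxn7* stood at 0.918 and 1.14 FPKM with shNC and 0.619 and 0.736 FPKM with shNAT10 (log2 fold change -0.54, adjusted p = 0.397 by limma). *Atxn7l3*, the most abundant of the 5, stood at 10 and 7.87 FPKM with shNC and 6.65 and 7.98 FPKM with shNAT10, with overlapping groups, and *Eny2* stood at 4.56 and 4.25 FPKM with shNC and 5.95 and 5.08 FPKM with shNAT10. Estimates for these 5 genes ran in both directions, with 4 below 0 and 1 above.

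The remaining histone deubiquitinases were not called. *Usp3* and *Usp16*, which act on H2A, *Usp21*, also an H2A enzyme, *Usp42*, *Usp44* and *Usp49* had log2 fold changes from -0.35 (*Usp49*) to 0.013 (*Usp42*), and the groups overlapped for all 6. *Usp3* was uneven within shNAT10, at 4.50 and 2.92 FPKM against 4.25 and 4.80 FPKM with shNC. *Usp49* is uncertain, since 51.8% of the 50-base runs of its longest transcript also occur in *Gm20517*, which overlaps it on the same strand and had 0.0613 FPKM or less in every library.

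Of the 13 members with roles in DNA damage, p53 and the cell cycle, 12 were tested, with 1 called lower (8.33%, against 7.83% of all genes), none higher, and a median log2 fold change of 0.062. *Usp11*, an X-linked enzyme that binds the repair protein BRCA2, stood at 1.62 and 1.26 FPKM with shNC and at 0.859 and 0.800 FPKM with shNAT10. Both shNAT10 libraries were below both shNC libraries (log2 fold change -0.72, SE 0.23, 95% interval -1.33 to -0.11, adjusted p = 0.247 by limma). The call was lost without shNAT10-1 (-0.77), without shNAT10-2 (-0.68) and without shNC-1 (-0.55). Its relatives *Usp4* and *Usp15* were not called, with 11.5 and 13.0 FPKM with shNC and 11.2 and 12.0 FPKM with shNAT10 for *Usp4*, and 5.62 and 5.45 FPKM with shNC and 5.86 and 5.62 FPKM with shNAT10 for *Usp15*.

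*Usp1*, which removes ubiquitin from the Fanconi protein FANCD2 and from PCNA, was the most abundant member by the mean of the 4 libraries, above 96.8% of the protein-coding genes tested. It stood at 67.1 and 59.0 FPKM with shNC and at 74.8 and 72.9 FPKM with shNAT10. The groups did not overlap, but the test was not passed (log2 fold change 0.23, 95% interval -0.027 to 0.49, adjusted p = 0.344 by limma). It was called higher without shNC-1 (0.32) and when libraries were scaled to the same fragments outside the rRNA-related loci (0.29). Without shNC-2 the log2 fold change was 0.14. Its level is uncertain in part, since 22.8% of its 50-base runs also occur in the pseudogene *Gm5841*, which had 5 fragments in all.

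*Usp1*, *Usp12* and *Usp46* share the cofactor *Wdr48*, which activates them. *Usp12* stood at 13.8 and 16.7 FPKM with shNC and at 15.6 and 16.0 FPKM with shNAT10, with overlapping groups (log2 fold change 0.061, 95% interval -0.26 to 0.39). The log2 fold change of *Usp46* was -0.019. *Wdr48* itself stood at 9.33 and 9.87 FPKM with shNC and at 10 and 10 FPKM with shNAT10, and *Wdr20*, which joins it, at 5.04 and 4.79 FPKM with shNC and 5.06 and 4.90 FPKM with shNAT10, and neither was called. No member of this complex passed the test in limma.

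*Usp47*, a deubiquitinase of DNA polymerase beta, stood at 13.8 and 12.5 FPKM with shNC and at 13.6 and 14.6 FPKM with shNAT10 (log2 fold change 0.10, 95% interval -0.17 to 0.38). *Usp45*, which acts on the repair nuclease subunit ERCC1 and was named after its values were seen, stood at 7.62 and 7.16 FPKM with shNC and at 10.2 and 8.53 FPKM with shNAT10. Its groups did not overlap, and the interval just included 0 (log2 fold change 0.33, 95% interval -0.013 to 0.68, adjusted p = 0.316 by limma). It was called higher in 3 of 15 alternatives, by limma-voom, with the scaling outside the rRNA-related loci and without shNAT10-2. *Usp7*, the enzyme of MDM2 and p53, had a log2 fold change of 0.063, and its partner *Gmps* stood at 19.2 and 20.0 FPKM with shNC and 22.2 and 21.6 FPKM with shNAT10 (0.16, not called). *Usp2*, *Usp24*, *Usp28*, *Usp37* and *Usp48* were not called and had log2 fold changes from -0.16 to 0.12. The imprinted gene *Usp29*, with 27 fragments in all, 15 of them in shNAT10-2, was not tested.

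The members of the ribosome and nucleolus were *Usp10*, which removes ubiquitin from small ribosomal subunits, and the nucleolar enzyme *Usp36*. *Usp10* stood at 1.18 and 1.2 FPKM with shNC and at 1.24 and 1.30 FPKM with shNAT10, and *Usp36* at 1.69 and 1.48 FPKM with shNC and at 1.36 and 1.47 FPKM with shNAT10. Neither was called, and the intervals of the log2 fold change were -0.42 to 0.59 for *Usp10* and -0.65 to 0.34 for *Usp36*. Of the binding partners of *Usp10*, *G3bp1* stood at 34.4 and 36.3 FPKM with shNC and at 40.3 and 40.9 FPKM with shNAT10 (log2 fold change 0.20, not called), and *G3bp2* had a log2 fold change of 0.054.

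Of the 11 members of signalling and trafficking, 10 were tested and 0 called in either direction by limma (against 8.41% of all genes higher and 7.83% lower), 0 of them with an unadjusted p under 0.05 and 0 with an adjusted p under 0.05 by limma-voom. *Usp32* was called lower without shNC-1. Their log2 fold changes ran from -0.20 to 0.16. *Usp9x*, a large X-linked enzyme with many substrates, stood at 27.3 and 27.5 FPKM with shNC and at 29.0 and 26.0 FPKM with shNAT10. Its groups overlapped and no difference was detected (log2 fold change 0.0046, 95% interval -0.25 to 0.25) on 21199 fragments, the most of any member. Its Y-linked copy *Usp9y* was listed at 0. *Usp38*, a regulator of innate signalling, stood at 15.1 and 14.4 FPKM with shNC and at 13.1 and 12.6 FPKM with shNAT10, without overlap between the groups but not called (log2 fold change -0.20, 95% interval -0.44 to 0.045, adjusted p = 0.383 by limma). Its exons overlap *Gm9725* on the opposite strand over 20.5% of their length, so its level is uncertain. The others were the endosomal enzyme *Usp8*, the paralogs *Usp4* and *Usp15*, *Usp20* and *Usp33*, the axin enzyme *Usp34*, *Usp31* and *Usp32*, with log2 fold changes from -0.13 to 0.16. The levels of *Usp33* and *Usp34* are uncertain too. Other genes cover 24.4% of the exon bases of *Usp33*, mostly *Gm43857* on the opposite strand. For *Usp34* it is 11.6%, by *Ahsa2* on the opposite strand. The partners of *Usp8*, *Stam*, *Stam2* and *Hgs*, and *Sart3*, the partner of *Usp4* and *Usp15*, were not called.

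Among the 4 members tied to membranes, the ER and mitochondria, 2 were called lower, where 7.83% of all genes were, and each of these calls held in only 7 of 15 alternatives. *Usp30*, an enzyme of the outer mitochondrial membrane that opposes mitophagy, stood at 4.42 and 3.71 FPKM with shNC and at 3.05 and 3.07 FPKM with shNAT10. The shNAT10 libraries were nearly equal and below both shNC libraries (log2 fold change -0.39, SE 0.15, 95% interval -0.79 to -0.0023, adjusted p = 0.299 by limma). This call lay at the threshold and was lost without shNC-1 (-0.27), without shNAT10-1 (-0.39) and without shNAT10-2 (-0.40). Of its exon bases 8.08% are covered by other genes, mostly *Alkbh2* on the opposite strand, so the level of *Usp30* is uncertain too. *Alkbh2* stood at 27.1 and 22.8 FPKM with shNC and at 21.8 and 22.6 FPKM with shNAT10. Its groups did not overlap, and it was not called (log2 fold change -0.16). The part of its fragments in the values of *Usp30* was not tested.

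*Usp35*, a relative of *Usp38*, stood at 1.45 and 1.34 FPKM with shNC and at 0.949 and 0.839 FPKM with shNAT10. The groups were clearly apart, and each pair of libraries was close (log2 fold change -0.59, SE 0.21, 95% interval -1.14 to -0.036, adjusted p = 0.279 by limma). The call was lost when any single library was left out, with log2 fold changes of -0.54 without shNC-1, -0.64 without shNC-2, -0.67 without shNAT10-1 and -0.51 without shNAT10-2. *Usp19*, which has a form anchored in the ER membrane, stood at 7.04 and 4.91 FPKM with shNC and at 5.14 and 5.14 FPKM with shNAT10, and *Usp25*, linked to ER-associated degradation, at 4.40 and 4.18 FPKM with shNC and at 5.71 and 3.90 FPKM with shNAT10. For *Usp19* and *Usp25* 1 library stood apart from the other 3, and neither gene was called, although *Usp19* was called lower without shNC-2.

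The 4 members whose USP fold is reported to lack activity were not called, where 8.41% of all genes were called higher and 7.83% lower. *Usp39*, a splicing factor, stood at 35.3 and 30.1 FPKM with shNC and at 32.8 and 28.9 FPKM with shNAT10, with overlapping groups (log2 fold change -0.082, 95% interval -0.41 to 0.25). *Usp50*, a relative of *Usp8*, stood at 0.358 and 0.218 FPKM with shNC and at 0.155 and 0.127 FPKM with shNAT10, on 13, 8, 6 and 6 fragments. Its groups did not overlap, but the test was not passed (log2 fold change -0.67, 95% interval -1.98 to 0.64, adjusted p = 0.568 by limma). It passed without shNC-2 (-0.93) but not without shNC-1 (-0.40). Of its 50-base runs, 16.0% also occur in other genes. The junction protein gene *Usp53* and its relative *Usp54* had log2 fold changes of 0.14 and 0.11.

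The last group held 3 little characterised members, of which *Usp26* and *Usp43* were listed at 0. *Usp40* stood at 2.30 and 2.65 FPKM with shNC and at 3.59 and 3.38 FPKM with shNAT10. Both shNAT10 libraries were above both shNC libraries (log2 fold change 0.48, SE 0.15, 95% interval 0.082 to 0.88, adjusted p = 0.242 by limma). By limma-voom the adjusted p was 0.0292, and over the 15 alternatives it ran from 0.0292 to 0.568. The call was lost without shNC-1 (0.38), without shNAT10-1 (0.44) and without shNAT10-2 (0.52).

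Genes of the other deubiquitinase families were read for comparison, together with *Cyld*, *Uspl1* and *Pan2*, which have a USP fold without a Usp number. Not all genes of this list act on ubiquitin. Of 41 listed, 39 were tested, with 2 called higher and 2 lower (5.13% each, against 8.41% and 7.83% of all genes) and a median log2 fold change of -0.039, close to that of the USPs. *Otub2*, of the OTU family, fell from shNC values of 11.6 and 11.6 FPKM to shNAT10 values of 8.39 and 7.40 FPKM (log2 fold change -0.55, SE 0.11, adjusted p = 0.133 by limma). *Eif3h*, a translation initiation factor subunit with a JAMM-type domain, fell from shNC values of 271 and 303 FPKM to shNAT10 values of 233 and 244 FPKM (-0.27, adjusted p = 0.298 by limma). *Uchl1* rose from 1.62 and 1.75 FPKM to shNAT10 values of 3.17 and 2.28 FPKM (0.64, adjusted p = 0.262 by limma), and *Uspl1*, which has a USP-like fold but acts on SUMO, rose from 7.66 and 8.69 FPKM to shNAT10 values of 10.1 and 10.4 FPKM (0.32, adjusted p = 0.271 by limma). The call of *Otub2* held in all 15 alternatives, that of *Uspl1* in 11, that of *Uchl1* in 10 and that of *Eif3h* in 7.

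The substrate side was read from single genes. *Ubb*, which encodes a chain of ubiquitin repeats, fell from shNC values of 815 and 859 FPKM to shNAT10 values of 673 and 692 FPKM (-0.29, SE 0.10, adjusted p = 0.272 by limma), a call that held in 7 of 15 alternatives. *Rps27a* stood at 674 and 837 FPKM with shNC and 690 and 728 FPKM with shNAT10, with overlapping groups, and was not called. *Uba1*, the main E1 enzyme, stood at 29.8 and 25.3 FPKM with shNC and at 20.3 and 23.3 FPKM with shNAT10, without overlap and not called (log2 fold change -0.34, 95% interval -0.68 to 0.0034). *Ubb* was thus well above every USP in every library.

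Position and structure of the members were described from the annotation. The 49 members lie on 17 chromosomes, 5 of them on the X chromosome (*Usp9x*, *Usp11*, *Usp26*, *Usp27x* and *Usp51*), of which 3 were tested and 2 called lower, *Usp11* from 20703906 to 20720539 and *Usp27x* from 7371276 to 7375830. Of all 598 genes of the X chromosome tested, 59 were called higher and 54 lower. The tested members were long, with a median exon length of 7680 bases against 4289 for protein-coding genes. Across the 43 members, Spearman's rho between exon length and log2 fold change was 0.45, against 0.011 across 12817 protein-coding genes, and between mean level and log2 fold change it was 0.31 against -0.083. These values are across genes of the same 4 libraries, which are not independent replicates, and the called members with falls other than *Usp14* were of low to middle level, from 21.5% (*Usp27x*) to 50.5% (*Usp30*) of protein-coding genes lying below them.

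Promoters of 38 of the 49 members were found by symbol in RefSeq (GRCm38.p6), and the others were *Usp1*, *Usp5*, *Usp9x*, *Usp14*, *Usp22*, *Usp33*, *Usp39*, *Usp42*, *Usp43*, *Usp44* and *Usp53*. In the 250 bases before the start, the median GC content of the 38 was 65.0%, against 52.4% for all 32851 promoters. Motifs were searched on both strands, and none of them contains another. The GC box GGGCGG was present in 25 of the 38 (65.8%, against 32.7% of all promoters) and the ETS motif CCGGAAG in 7 (18.4% against 6.91%). CCAAT was present in 9 (23.7% against 33.8%), the E-box CACGTG in 3 (7.89% against 6.02%), TATAAA in 2 (5.26% against 12.4%) and the CRE TGACGTCA in 0 (0.0% against 1.55%). The members' promoters were therefore rich in GC and GC boxes, a description that compares them with promoters of all gene types.

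The 120 bases before the RefSeq start are shown for 4 of the called members, to set the falls of *Usp11*, *Usp27x* and *Usp30* beside the rise of *Usp40*. Capitals mark matches to the 6 motifs on either strand, and each is written in the direction of its gene, on the plus strand for *Usp11* and *Usp30* and on the minus strand for *Usp27x* and *Usp40* (GRCm38.p6).
Usp11, chrX:20703789-20703908: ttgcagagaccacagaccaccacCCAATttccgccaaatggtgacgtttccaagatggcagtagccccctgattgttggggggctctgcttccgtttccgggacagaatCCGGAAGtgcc
Usp27x, chrX:7375831-7375950: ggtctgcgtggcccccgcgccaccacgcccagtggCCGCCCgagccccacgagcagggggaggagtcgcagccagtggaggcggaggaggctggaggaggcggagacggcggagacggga
Usp30, chr5:114100213-114100332: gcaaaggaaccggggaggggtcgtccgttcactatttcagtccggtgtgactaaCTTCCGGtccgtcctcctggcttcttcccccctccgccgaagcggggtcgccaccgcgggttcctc
Usp40, chr1:88008552-88008671: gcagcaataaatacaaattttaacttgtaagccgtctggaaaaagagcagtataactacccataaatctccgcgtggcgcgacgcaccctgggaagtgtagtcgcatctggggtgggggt
*Usp11* held CCAAT and CCGGAAG, *Usp30* CCGGAAG and *Usp27x* GGGCGG, while *Usp40* held none of the 6 in this stretch and TATAAA further upstream. The GC content of the 250 bases was 50% for *Usp11*, 72.4% for *Usp27x*, 61.6% for *Usp30* and 42.0% for *Usp40*. Among the shown members that fell, CCGGAAG was shared by *Usp11* and *Usp30*. The 250 bases of *Usp8*, *Usp16*, *Usp24*, *Usp36* and *Usp38* held it too, and these genes were not called by limma. No link between the motif and a fall is therefore read from it. The stretch of *Usp35* is not shown because the bases after its RefSeq start were not found in a GENCODE transcript of the gene, and it held GGGCGG like that of *Usp27x*.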

How the data were processed

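Long RNA-seq libraries of shNC and shNAT10 FGSCs (2 each) were grouped by the genotype and title of the sample labels. According to the study's methods, RNA was depleted of rRNA and sequenced in paired-end mode, the authors' aligner was HISAT2, and the authors tested differences in DESeq2. The labels describe mRNA isolation with the Oligotex kit, and the submitters' processing notes add cutadapt and mm10. The counting program and annotation are not given in the sources used here. The authors deposited FPKM for each gene and library. The authors' deposited comparison columns hold log2 fold changes, p-values and adjusted p-values and were not used.

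Fragments were recovered from the FPKM with exon lengths of GENCODE M21 (GRCm38). Of the values under 50 fragments, 96.0% to 96.6% per library differed by no more than 0.02 from an integer, against 4.0% if they were spread evenly. The divisors were 11.7 M, 11.9 M, 12.6 M and 15.3 M fragments for shNC-1, shNC-2, shNAT10-1 and shNAT10-2, and median-ratio factors computed from the FPKM were equal among the libraries, so this scaling is already included.

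The 2 groups were tested by lmFit and eBayes with trend (two-sided) of limma 3.58.1, run under R 4.3.3, on log2(FPKM + 0.1) for genes whose mean FPKM reached 0.1, with Benjamini-Hochberg adjustment over all genes tested. Fold changes on this scale understate the change of genes with low FPKM. No term for the replicate number was used. The threshold (fold change over 1.2, p of at most 0.05) is that of the study's legend for these data. Tables were handled by pandas 2.3.3 and numpy 2.4.6 under Python 3.11.15, correlations by scipy 1.17.1 and plots by matplotlib 3.10.9. Alternatives were pseudocounts of 1 and 0.01, no filter, a mean FPKM of at least 1, 4 scalings and limma without trend. The others were limma-voom on recovered fragments, the replicate block and each library left out in turn. The median-ratio scaling was equal among the libraries and repeated the main calls, so it adds no check to counts of alternatives.

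Full values are given for *Nat10*, *Usp14*, every member called or with an adjusted p under 0.05, the 8 members of highest mean FPKM, and members whose groups did not overlap with an absolute log2 fold change of at least 0.4. Genes of the other lists are named when called or among the most abundant, and further genes were named after their values were seen. The members and lists were chosen with earlier results of these data known.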

Additional observations from a re-analysis of the deposited data

How the results depend on the processing

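No called USP changed sign in limma under any of the alternatives. With a mean FPKM of at least 1, 2 of 36 USPs were called lower and 1 higher, against 1345 and 1323 of 12138 genes, *Usp27x* fell outside the filter, and *Usp11* and *Usp35* were tested but not called. Scaled to the same fragments outside the rRNA-related loci, 3 were called higher and 3 lower and the median log2 fold change of the USPs was 0.019, while that of all genes was 0.058. By the same threshold on unadjusted p, limma-voom called 2 USPs higher and 6 lower, with 2018 higher and 1875 lower among 20065 genes. With the replicate block, 3 USPs were called lower instead of 5, and 1 higher, against 1527 and 1587 of 20116 genes. The deviations of same-numbered libraries had a correlation of 0.0071 over 20116 genes. This value cannot decide whether they shared a culture or infection, which is not given in the sources used here. With each library left out in turn, 0 to 6 USPs were called lower and 0 to 1 higher, their median log2 fold change ran from -0.058 to 0.0024, and over all genes 1108 to 1734 were called higher and 899 to 1659 lower. These fits hold fewer samples, and a lone library was assumed to vary like the other group. For the other changes the cause was not tested. The members under 0.1 FPKM fell outside the main filter, and *Usp50*, with few fragments, had a wide interval. Whether depth limited these members was not tested.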
